A study of Mus musculus with 8 samples.

Results

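The 10 genes of the growth hormone and insulin-like growth factor (IGF) axis described here were chosen by name. They are Ghr, Stat5a, Stat5b, Socs2, Cish, Bcl6, Igf1, Igfals, Igfbp1 and Igfbp2. The choice was made with earlier results of these data known. All 10 were present in a liver count table of 19267 genes, and all 10 were among the 13993 genes with enough counts to be tested.

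Growth hormone from the pituitary binds its receptor on hepatocytes, where the kinase JAK2 phosphorylates STAT5 and STAT5 enters the nucleus to switch on Igf1, Igfals and the feedback inhibitors Socs2 and Cish. IGF-I circulates bound to IGF binding proteins, and hepatic Igfbp1 is known to be held down by insulin and to rise with fasting. In rodent liver, growth hormone reaches males in pulses and females more steadily, and this pattern, through STAT5b, BCL6 and CUX2, sets the levels of many sex-biased genes.

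The study asked how loss of the transcription factor gene Elf4 in gut epithelium bears on alcoholic liver disease, and the liver libraries crossed genotype with diet. All mice were C57BL/6 males that entered the diet at 6 weeks and were sampled at 9 weeks of age. Elf4-/- mice lacked Elf4 in intestinal epithelium through Cre driven by the Vil1 promoter, and WT mice, per the study's methods, carried Cre as well, so the liver itself was not the deleted tissue and its Elf4 level is no check of the genotype. For 21 days the EtOH groups were fed Lieber-DeCarli diet in which alcohol made up 5% (w/v), and in the Control groups isocaloric maltose dextrin replaced it. The groups were named WT-Control and WT-EtOH in one genotype, Elf4-/--Control and Elf4-/--EtOH in the other, with 2 libraries each. The labels name them as separate samples and do not say more, so the p-values below measure the spread between these libraries.

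Library totals ran from 6171051 to 9157362 counts, which puts 1 count at 0.102 to 0.186 CPM (counts scaled to library size by the trimmed mean of M values, TMM). Transcripts of the mitochondrial genome took 23.4% to 33.7% of the counts in WT-Control, 10.8% to 12.5% in WT-EtOH, 18.5% to 18.7% in Elf4-/--Control and 18.3% to 22.1% in Elf4-/--EtOH. Hepatocyte markers were abundant in every library, with a summed level of 48518 to 90248 CPM over 8 genes. The replicates of Elf4-/--EtOH lay further apart than those of the other groups for most of the 10 genes, and results that rest on 1 of them are given with and without it.

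Promoter letters are shown first for the genes on which the results turn, because STAT5 and BCL6 are known to bind the same letters, TTCNNNGAA. RefSeq promoter windows of GRCm38.p6, from 250 bases before to 50 bases after an annotated start, were found for 9 of the 10 genes, in 16 windows. Socs2 had no entry. The letters TTCNNNGAA, searched on both strands, stood in 5 of the 16 windows and in 8.3% of all 32851 windows. Cish held a tandem pair at its annotated start. Bcl6 held 3 matches in 1 window, at a start inside the gene, and 1 in the window at the 5′ end of the gene. Igfals held 1 match in each of 2 windows. The letters CAAAACAA, known from the insulin response element of the IGFBP1 gene, were also searched on both strands and stood in 1 of the 16 windows, that of Igfbp1, and in 2.51% of all windows. The stretches below are written 5′ to 3′ on the strand of the gene with the matched letters in capitals. They lie at chr9:107296654-107296683 (plus strand) for Cish, at chr16:23981432-23981461, chr16:23981386-23981415 and chr16:23981352-23981381 (minus strand) for Bcl6 a, b and c, and at chr11:7197668-7197697 (plus strand) for Igfbp1.
Cish: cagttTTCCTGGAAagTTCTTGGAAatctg
Bcl6 a: aggccgcggcTTCCTGGAAagttacttctc
Bcl6 b: ggcaggagtgTTCTGTGAAatccttagagc
Bcl6 c: atcgactacgTTCCGGGAAtgagagggctg
Igfbp1: gagctcacaagCAAAACAAacttattttga
The matches of Bcl6 a, b and c begin 168, 122 and 88 bases upstream of the annotated start of their window, chr16:23981234-23981533. This window lies inside the gene, whose 5′ end on the minus strand is at 23988852. The window at that end, chr16:23988803-23989102, held the remaining match, 118 bases upstream of its start and not printed here. The match of Igfbp1 begins 108 bases upstream. These are matches of letters in annotated windows, and no binding was measured.

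Per kilobase of exon, the only scale on which genes are set beside each other here, Igfbp2 and Igf1 were the most abundant of the 10 in WT-Control at 259 ± 166 and 139 ± 87.9 CPM per kb (SD, n = 2). Ghr stood at 40.5 ± 2.43 CPM per kb (SD, n = 2) and Bcl6 at 30.04 ± 3.53 (SD, n = 2), both above Stat5b at 11.8 ± 0.220 (SD, n = 2). Socs2 and Stat5a were near each other at 2.71 ± 0.730 and 2.82 ± 0.339 CPM per kb (SD, n = 2), and Cish was the lowest in this group at 0.302 ± 0.262 (SD, n = 2). In WT-EtOH, Bcl6 at 2.81 ± 1.02 CPM per kb (SD, n = 2) lay below Socs2 at 5.44 ± 0.399 (SD, n = 2). Over the 8 libraries the ratio of the highest to the lowest CPM was 55.7 for Cish, 37.9 for Igfbp1, 15.6 for Bcl6, 9.76 for Igfbp2, 4.88 for Socs2 and 3.22 for Igf1. It was between 1.93 and 2.25 for Ghr, Stat5a, Igfals and Stat5b.

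**Figure D1:**
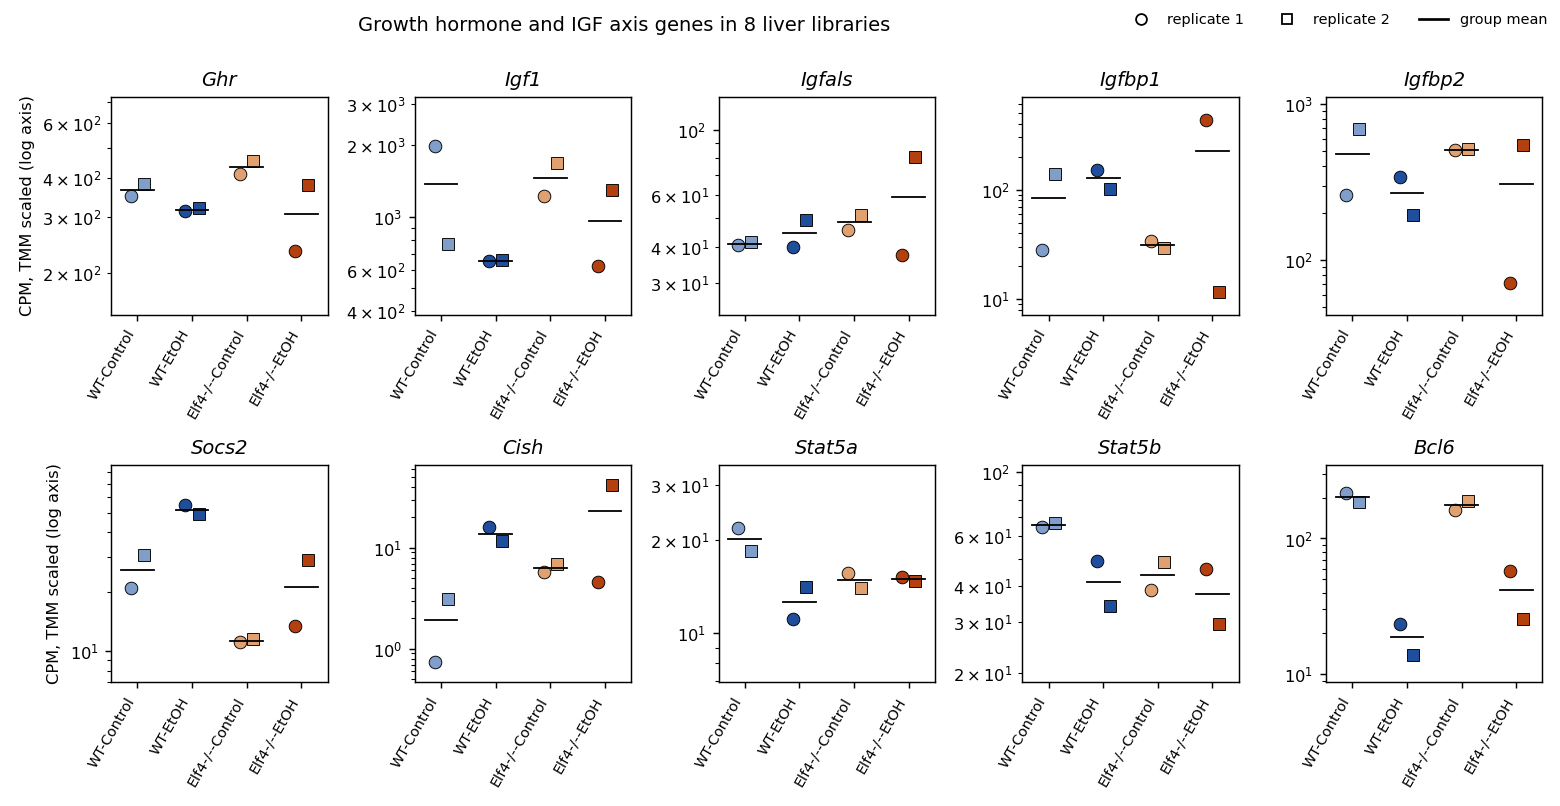
Level of the 10 genes in each of the 8 libraries, as TMM-scaled CPM on a log axis that differs between panels. Circles and squares are replicates 1 and 2, lines are group means, and Bcl6 is the gene whose 4 EtOH libraries, at 14.0 to 57.5 CPM, all lie below its 4 Control libraries, at 162 to 218 CPM.

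The first question was which of the 10 genes responded to the alcohol diet. In WT, Bcl6 fell and Socs2 rose past the threshold, 2 of 10 genes where 21.6% of all genes tested passed (edgeR quasi-likelihood test at a Benjamini-Hochberg threshold of 0.05). In Elf4-/-, Bcl6 alone passed, 1 of 10 where 2.89% of all genes did. With the diet effect averaged over both genotypes, Bcl6 fell and Socs2 and Cish rose, 3 of 10 where 28.0% of all genes passed. The shares in WT and in the average are near those of all genes. The median log2 fold change of the 10 genes was −0.43 in WT, −0.11 in Elf4-/- and −0.34 in the average, against 0.01 for all genes in each.

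**Figure D2:**
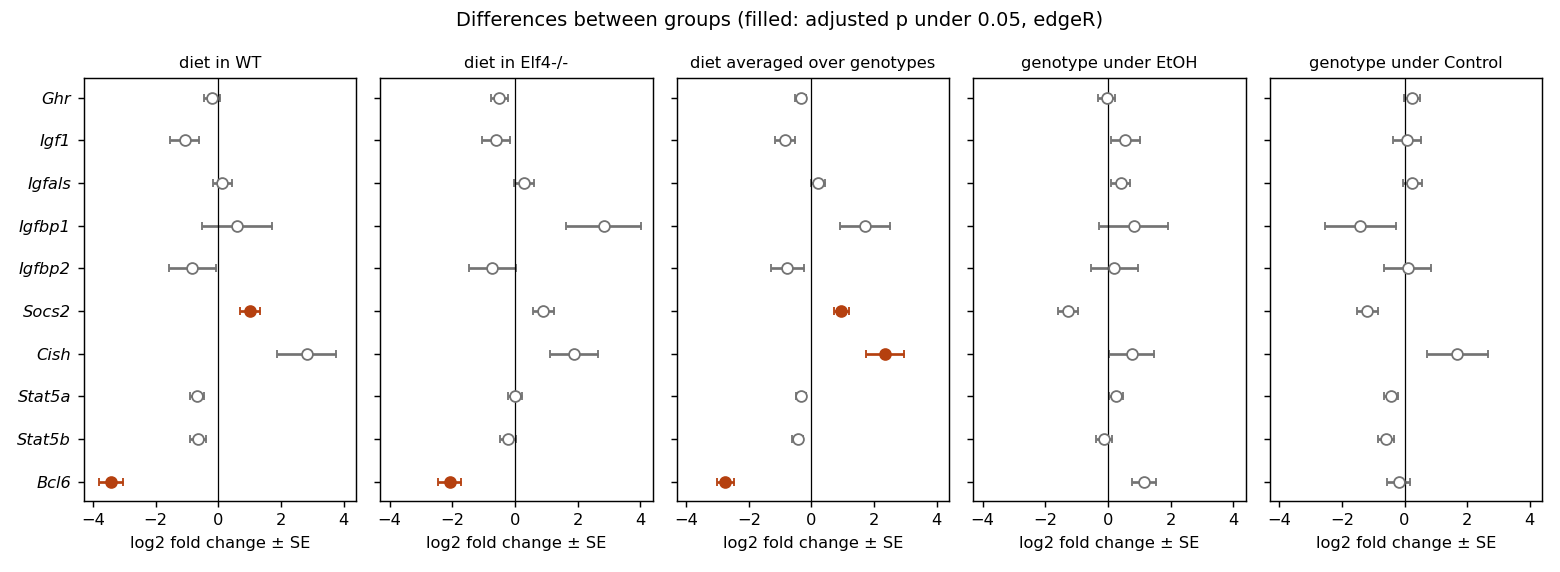
Log2 fold change ± SE of the 10 genes in the diet contrasts (EtOH against Control) and the genotype contrasts (Elf4-/- against WT). Filled points passed an adjusted p of 0.05 in edgeR's quasi-likelihood test, which holds for Bcl6 in all 3 diet contrasts, for Socs2 in WT and in the average, for Cish in the average, and for no gene in either genotype contrast.

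Bcl6, a transcriptional repressor that is more abundant in male than in female mouse liver and shares binding sites with STAT5, had 218 and 185 CPM in WT-Control and 23.6 and 14.0 CPM in WT-EtOH. In Elf4-/- it had 162 and 190 CPM under Control and 57.5 and 25.7 CPM under EtOH. Every EtOH library lay below every Control library, with means of 30.2 ± 18.9 and 189 ± 22.9 CPM (SD, n = 4), and Bcl6 was the only one of the 10 genes to separate the diets in this way, where 27.8% of all genes tested did. The log2 fold change was −3.42 ± 0.39 (SE) in WT (edgeR, adjusted p = 0.00147), a 10.7-fold lower level, and −2.08 ± 0.37 (SE) in Elf4-/- (edgeR, adjusted p = 0.0254). Averaged over genotypes it was −2.75 ± 0.27 (SE) (edgeR, adjusted p = 0.000348).

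The calls of Bcl6 in WT and in the average stayed past the threshold in every alternative run. The call in Elf4-/- was lost without Elf4-/--Control replicate 1 (edgeR, log2 fold change −2.20, adjusted p = 0.123) and without Elf4-/--Control replicate 2 (edgeR, −1.97, adjusted p = 0.189), and when only the 4 Elf4-/- libraries were fitted (edgeR, adjusted p = 0.0949). The log2 fold change in Elf4-/- minus that in WT was 1.34 ± 0.51 (SE), and it moved to 0.65 with Elf4-/--EtOH replicate 1 left out and to 1.80 with replicate 2 left out. This interaction did not pass over all genes (edgeR, unadjusted p = 0.0252, adjusted p = 0.424), and none of the 13993 genes passed in edgeR, while DESeq2 called 107 and none of the 10. At an unadjusted p under 0.05 the interaction held 1 of the 10 genes, Bcl6, and 10.1% of all genes.

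Markers of non-parenchymal cells rose together with the diet in WT, so their values belong beside these results. The summed level of 7 Kupffer cell markers was 181 to 246 CPM in WT-Control and 565 to 629 CPM in WT-EtOH, and all 7 passed the test as higher. The summed level of 8 endothelial markers was 81.9 to 143 against 323 to 397 CPM with 7 of 8 called, and that of 8 stellate cell markers 53.5 to 135 against 370 to 521 CPM with 6 of 8 called. Of all genes tested, 10.8% were called higher in WT. The summed hepatocyte markers were 66678 to 90248 CPM in WT-Control and 48518 to 55307 CPM in WT-EtOH. Of these 8 markers 1 was called lower, where 10.8% of all genes tested were. In sign 6 were lower and 2 higher, with a median log2 fold change of −0.37 against 0.01 for all genes. In Elf4-/- the summed levels under Control and EtOH were 168 to 176 and 229 to 232 CPM for Kupffer, 191 to 212 and 195 to 329 CPM for endothelial, and 185 to 214 and 296 to 453 CPM for stellate markers. There 1 of 7 Kupffer, 0 of 8 endothelial and 0 of 8 stellate markers passed in edgeR (3, 2 and 3 at an unadjusted p under 0.05). Only 1.71% of all genes tested were called higher in Elf4-/-, so fewer calls were made there among all genes as well. The part of these markers in the results was not tested, and in whole-liver RNA fewer cells of a type and less RNA per cell cannot be told apart.

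Socs2, a feedback inhibitor of the growth hormone receptor, had 20.9 and 30.7 CPM in WT-Control and 54.5 and 49.1 CPM in WT-EtOH. In Elf4-/- it had 11.2 and 11.5 CPM under Control and 13.4 and 28.8 CPM under EtOH. Within each genotype both EtOH libraries were above both Control libraries, which 7 of the 10 genes did in one direction or the other in WT and 3 of 10 in Elf4-/-, where 66.8% and 52.2% of all genes did. The rise was 1.004 ± 0.32 (SE) on the log2 scale in WT (edgeR, adjusted p = 0.0488), a 2.01-fold higher level. The value in Elf4-/- was 0.90 ± 0.33 (SE) (edgeR, adjusted p = 0.161), which was 0.22 without Elf4-/--EtOH replicate 2 and 1.35, past the threshold, without replicate 1 (edgeR, adjusted p = 0.0278), and the average was 0.95 ± 0.23 (SE) (edgeR, adjusted p = 0.0139).

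The call of Socs2 in WT was close to the threshold and rested on most of the libraries. Its adjusted p in edgeR was 0.241 without WT-Control replicate 1, 0.0738 without WT-Control replicate 2, 0.187 without WT-EtOH replicate 1, 0.146 without WT-EtOH replicate 2, and 0.0803 and 0.0812 without Elf4-/--Control replicates 1 and 2, with log2 fold changes of 0.75 to 1.31. The averaged call was lost in edgeR without WT-Control replicate 1 (adjusted p = 0.0541), Elf4-/--Control replicate 1 (0.0553) and Elf4-/--Control replicate 2 (0.0531), at log2 fold changes of 0.83 to 0.96.

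Cish, a related feedback inhibitor that STAT5 is known to induce, had the widest range of the 10 genes over the 8 libraries. It had 0.746 and 3.13 CPM in WT-Control, from 4 and 17 counts, and 15.9 and 11.6 CPM in WT-EtOH. In Elf4-/- it had 5.74 and 6.86 CPM under Control and 4.62 and 41.5 CPM under EtOH. The diets did not overlap in WT, and in Elf4-/- one EtOH library lay below and the other far above both Control libraries. The log2 fold change was 2.81 ± 0.93 (SE) in WT (edgeR, adjusted p = 0.0551) and 1.89 ± 0.77 (SE) in Elf4-/- (edgeR, adjusted p = 0.195). The average of 2.35 ± 0.60 (SE), a 5.10-fold higher level, passed (edgeR, adjusted p = 0.0176).

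The averaged call of Cish was lost in edgeR without WT-Control replicate 1 (log2 fold change 2.01, adjusted p = 0.0748), WT-EtOH replicate 1 (2.22, 0.0519), Elf4-/--Control replicate 1 (2.28, 0.0640) and Elf4-/--Control replicate 2 (2.41, 0.0566). It was 1.17, still past the threshold, without Elf4-/--EtOH replicate 2 (edgeR, adjusted p = 0.0273). In WT, Cish passed without Elf4-/--EtOH replicate 1 or 2 (edgeR, adjusted p = 0.000983 and 0.00151) and at a log2 fold change of 2.81 in both, while its value was 2.13 without WT-Control replicate 1 and 4.17 without WT-Control replicate 2, where it did not pass (edgeR, adjusted p = 0.258 and 0.105). In Elf4-/- the sign of Cish itself rested on 1 library, with a log2 fold change of 2.73 without Elf4-/--EtOH replicate 1 (edgeR, adjusted p = 0.00696) and −0.46 when replicate 2 was left out instead. Cish shares 7.46% and 4.07% of its exon bases with Gm17041 and Gm17040 that run the opposite way, and whether reads were counted by strand was not given in the sources used here, so reads of these genes may be mixed.

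Ghr, the growth hormone receptor, had 351 and 382 CPM in WT-Control, 314 and 322 CPM in WT-EtOH, 412 and 453 CPM in Elf4-/--Control and 235 and 379 CPM in Elf4-/--EtOH. Each EtOH library was below both Control libraries of its genotype, by small amounts in WT. Elf4-/--EtOH replicate 1, at 235 CPM, lay further below its Control libraries. The log2 fold change of −0.21 ± 0.26 (SE) in WT (95% interval −0.78 to 0.36) and −0.49 ± 0.26 (SE) in Elf4-/- did not pass (edgeR, adjusted p = 0.597 and 0.297), and with library totals as the only scaling the value in WT was 0.23. Without Elf4-/--EtOH replicate 2, Ghr passed as lower in Elf4-/- (edgeR, −0.90, adjusted p = 0.0352) and in the average (edgeR, −0.56, adjusted p = 0.0172, against −0.35 with all libraries). With replicate 1 left out instead, these values were −0.19 and −0.20.

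Stat5b, the main STAT5 of hepatocytes, had 64.7 and 66.4 CPM in WT-Control and 48.9 and 34.2 CPM in WT-EtOH. In Elf4-/- it had 38.8 and 48.8 CPM under Control and 45.9 and 29.6 CPM under EtOH. WT-Control was thus the highest group, and the other groups overlapped each other. The diet difference was −0.66 ± 0.26 (SE) on the log2 scale in WT and −0.22 ± 0.26 (SE) in Elf4-/- (edgeR, adjusted p = 0.0932 and 0.676). Stat5a, its close paralog, had 21.8 and 18.4 CPM in WT-Control, 11.1 and 14.1 CPM in WT-EtOH, 15.7 and 14.0 CPM in Elf4-/--Control and 15.1 and 14.7 CPM in Elf4-/--EtOH. It showed the same order in that WT-Control was highest, with a diet difference of −0.67 ± 0.22 (SE) in WT and 0.01 ± 0.22 (SE) in Elf4-/- (edgeR, adjusted p = 0.0580 and 0.992).

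Neither STAT5 gene passed with all libraries. The 4 groups were fitted in 1 model with a shared spread per gene, so the adjusted p of any gene in WT also depends on the Elf4-/- libraries. Without Elf4-/--EtOH replicate 1 or 2 Stat5a in WT passed (edgeR, adjusted p = 0.0447 and 0.0455) and so did Stat5b in WT (edgeR, 0.0383 and 0.0338), with fold changes close to those above. Without Elf4-/--EtOH replicate 1 Stat5b also passed in the average (edgeR, −0.61, adjusted p = 0.0236, against −0.44 with all libraries). Stat5b in Elf4-/- changed sign to 0.05 without Elf4-/--EtOH replicate 2. The handling of reads shared by near-identical sequence of Stat5a and Stat5b was not given in the sources used here, so the split between them is uncertain.

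Igf1, the hormone that carries most growth hormone signals to other tissues, had 1997 and 766 CPM in WT-Control and 650 and 656 CPM in WT-EtOH. Elf4-/- libraries had 1227 and 1678 CPM under Control and 619 and 1295 CPM under EtOH. WT-EtOH was below both WT-Control libraries, but WT-Control replicate 2 was nearer to WT-EtOH than to its own replicate, and the diets overlapped in Elf4-/-. Its log2 fold change was −1.08 ± 0.46 (SE) in WT, −0.60 ± 0.46 (SE) in Elf4-/- and −0.84 ± 0.33 (SE) in the average (edgeR, adjusted p = 0.121, 0.482 and 0.0790).

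These values of Igf1 depended on single libraries. In WT the log2 fold change was −0.23 without WT-Control replicate 1 and −1.61 without WT-Control replicate 2, and the latter passed (edgeR, adjusted p = 0.0434), as did −1.09 without Elf4-/--EtOH replicate 2 (edgeR, adjusted p = 0.0499). In the average it passed without WT-Control replicate 2 (edgeR, −1.11, adjusted p = 0.0247) and when Elf4-/--EtOH replicate 2 was left out (edgeR, −1.17, adjusted p = 0.0138), and was −0.42 without WT-Control replicate 1. The Wald test of DESeq2 on all libraries called Igf1 lower in WT and in the average (adjusted p = 0.0337 and 0.0137).

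Igfals, the acid-labile subunit that holds IGF-I in the long-lived circulating complex, had 40.5 and 41.4 CPM in WT-Control, 39.8 and 49.4 CPM in WT-EtOH, 45.6 and 51.5 CPM in Elf4-/--Control and 37.5 and 80.9 CPM in Elf4-/--EtOH. The diets overlapped in both genotypes. Its log2 fold change was 0.13 ± 0.31 (SE) in WT, with a 95% interval of −0.56 to 0.81, and 0.29 ± 0.31 (SE) in Elf4-/- (edgeR, adjusted p = 0.799 and 0.626). With Elf4-/--EtOH replicate 1 left out, the average moved from 0.21 to 0.43 and passed (edgeR, adjusted p = 0.0462), and it was −0.14 without replicate 2.

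Igfbp1, the binding protein that insulin represses, had 28.0 and 139 CPM in WT-Control and 152 and 102 CPM in WT-EtOH. Elf4-/- libraries had 33.9 and 29.1 CPM under Control and 437 and 11.5 CPM under EtOH, so that the highest and the lowest libraries of the whole set were replicates of 1 group. Its log2 fold change was 0.60 ± 1.11 (SE) in WT and 2.83 ± 1.19 (SE) in Elf4-/- (edgeR, adjusted p = 0.733 and 0.208). In Elf4-/- it was −1.45 when Elf4-/--EtOH replicate 1 was left out and 3.77, past the threshold, when replicate 2 was (edgeR, adjusted p = 0.00291). The average of 1.71 (edgeR, adjusted p = 0.138) was −0.43 and 2.18 in the same fits, and the latter passed (edgeR, adjusted p = 0.00188). No direction of Igfbp1 with diet can be read from these 8 libraries.

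Igfbp2, a binding protein that liver secretes in quantity, had 261 and 695 CPM in WT-Control, 342 and 196 CPM in WT-EtOH, 508 and 513 CPM in Elf4-/--Control and 71.3 and 549 CPM in Elf4-/--EtOH. The diets overlapped in both genotypes. Its log2 fold change was −0.83 ± 0.74 (SE) in WT and −0.72 ± 0.74 (SE) in Elf4-/- (edgeR, adjusted p = 0.448 and 0.617). It was −2.86 in Elf4-/- without Elf4-/--EtOH replicate 2, which passed (edgeR, adjusted p = 0.00789), and 0.11 when replicate 1 was left out instead. The average passed without Elf4-/--EtOH replicate 2 only (edgeR, −1.85, adjusted p = 0.00186, against −0.77 with all libraries).

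The Elf4-/--EtOH replicates lay far apart for several of these genes. Replicate 1 exceeded replicate 2 by 5.21 on the log2 scale for Igfbp1 and by 1.15 for Bcl6, and was lower by 3.09 for Cish, 2.94 for Igfbp2, 1.11 for Igfals, 1.09 for Socs2 and 1.06 for Igf1. Over 9398 genes that averaged 50 counts or more, the median absolute gap in this group was 0.32 with an SD of the gap of 0.68, while counting error alone gives an SD of 0.19. Pdk4, a kinase gene known to rise in fasting and to be repressed by insulin, showed a gap in the direction of Igfbp1 in the same pair, with 219 and 8.36 CPM. Irs2 was also higher in replicate 1, with 18.6 and 4.11 CPM. Other genes that insulin is known to repress lay closer together in this pair. Pck1 spanned 1502 to 3449 CPM, G6pc 244 to 303, Ppargc1a 8.49 to 14.3, Klf15 109 to 117, Sesn1 9.29 to 15.9 and Sesn3 6.06 to 7.96. Spans do not say which replicate was higher, so these genes are not set beside the direction of Igfbp1. The cause of these gaps was not tested. Stat5a, with 15.1 and 14.7 CPM, did not share the spacing. Wide gaps were not confined to this group or to these genes. In WT-Control, replicate 1 minus replicate 2 was −2.31 for Igfbp1, −1.74 for Cish, −1.41 for Igfbp2 and 1.38 for Igf1. Gdf15, outside the axis, spanned 4.25 to 65.2 CPM in Elf4-/--EtOH.

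**Figure D3:**
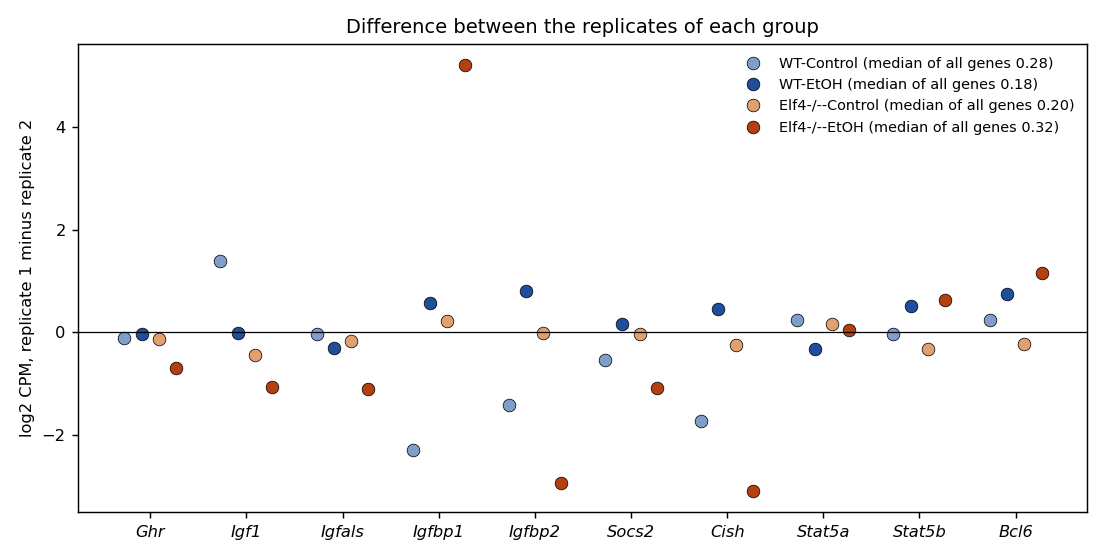
Difference in log2 CPM between replicate 1 and replicate 2 of each group for the 10 genes, with the median absolute gap of all genes that averaged 50 counts or more given per group in the legend. Elf4-/--EtOH holds the widest gaps, from 5.21 for Igfbp1 to −3.09 for Cish, against a median of 0.32 for all genes.

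The second question was whether loss of Elf4 in the gut altered these genes in liver. None of the 10 genes passed in edgeR under EtOH, where 0.143% of all genes did, or under Control, where 0.0143% did. At an unadjusted p under 0.05 in edgeR, Socs2 and Bcl6 were among 10.5% of all genes under EtOH, and Socs2 and Stat5b among 7.31% under Control. DESeq2 called 1 of the 10 genes under EtOH, Socs2, and none under Control. With the genotype effect averaged over both diets, a contrast added after the values were seen, none of the 10 passed in edgeR where 0.136% of all genes did, and 1 of 10, Socs2, had an unadjusted p under 0.05 where 7.94% of all genes did.

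Socs2 was lower in both Elf4-/- libraries than in both WT libraries under each diet. The log2 difference, Elf4-/- minus WT, was −1.29 ± 0.32 (SE) under EtOH (edgeR, unadjusted p = 0.00238, adjusted p = 0.199) and −1.19 ± 0.34 (SE) under Control (edgeR, unadjusted p = 0.00536, adjusted p = 0.406). Under EtOH it passed without Elf4-/--EtOH replicate 2 (edgeR, −1.96, adjusted p = 0.00544) and in DESeq2 with all libraries (adjusted p = 0.0278), and it was −0.84 without Elf4-/--EtOH replicate 1. Bcl6 was higher in Elf4-/- than in WT under EtOH by 1.15 ± 0.37 (SE) (edgeR, unadjusted p = 0.0112, adjusted p = 0.311), which passed without Elf4-/--EtOH replicate 2 (edgeR, 1.61, adjusted p = 0.0175) and was 0.47 without replicate 1. Stat5b was lower in Elf4-/- under Control by −0.58 ± 0.26 (SE) (edgeR, unadjusted p = 0.0460, adjusted p = 0.677).

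Groups without overlap were also common among all genes. Under EtOH 3 of the 10 genes separated the genotypes (Stat5a and Bcl6 higher and Socs2 lower in Elf4-/-), where 41.3% of all genes did. Under Control 6 of 10 did (Ghr, Igfals and Cish higher, Socs2, Stat5a and Stat5b lower), where 38.5% of all genes did. Endothelial and stellate markers had higher summed levels in Elf4-/--Control than in WT-Control, at 191 to 212 and 185 to 214 CPM against 81.9 to 143 and 53.5 to 135 CPM. In edgeR 0 of 8 endothelial and 0 of 8 stellate markers passed, and 5 of 8 in each list had an unadjusted p under 0.05. Of all genes, 0.0143% passed and 7.31% had an unadjusted p under 0.05. The part of these markers in the Control comparison was not tested. Under EtOH the summed Kupffer markers were 565 to 629 CPM in WT and 229 to 232 CPM in Elf4-/-, with 2 of 7 called lower and all 7 at an unadjusted p under 0.05 in edgeR, and their part in the genotype values of Socs2 and Bcl6 was not tested.

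Of 20 other genes that act at or below the growth hormone receptor, 19 were tested. With diet 2 rose and none fell in WT, none passed in Elf4-/-, and 2 rose and 1 fell in the average (edgeR), where 21.6%, 2.89% and 28.0% of all genes passed. Cux2 was among the 2 in both contrasts, and it passed the filter on low counts through the EtOH groups. At an unadjusted p under 0.05 edgeR held 6, 3 and 7 of the 19. Their median log2 fold change was −0.06 in WT, 0.13 in Elf4-/- and 0.15 in the average. Jak2, the receptor's kinase, had 10.2 to 17.5 CPM over all libraries and a log2 fold change of −0.06 in WT and −0.17 in Elf4-/- (edgeR, adjusted p = 0.884 and 0.741). Socs3, a feedback inhibitor shared with cytokine receptors, ranged from 12.4 to 52.6 CPM with −0.56 in WT (edgeR, adjusted p = 0.288), and Prlr, the prolactin receptor, from 25.2 to 97.6 CPM with 0.22 (edgeR, adjusted p = 0.733).

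Cux2, a transcription factor that is far more abundant in female than in male mouse liver, had 1.31 and 0.552 CPM in WT-Control and 12.3 and 36.9 CPM in WT-EtOH. Elf4-/- libraries had 1.54 and 0.895 CPM under Control and 50.1 and 2.39 CPM under EtOH. All 4 EtOH libraries were above all 4 Control libraries, where 27.8% of all genes tested separated the diets in one direction or the other. The Control libraries held 3 to 15 counts. Cux2 thus passed the filter on low counts through the EtOH groups, and its calls are no support for a rise. The log2 fold change was 4.71 in WT (edgeR, adjusted p = 0.0320) and 4.53 in the average (edgeR, adjusted p = 0.00541). Without each library in turn the average was 2.81 to 4.99. The value in Elf4-/- was 4.35 (edgeR, adjusted p = 0.0783), and the call in WT was lost without each of WT-Control replicates 1 and 2, WT-EtOH replicate 2 and Elf4-/--Control replicates 1 and 2, at an adjusted p of up to 0.162 in edgeR. Onecut1, a liver factor under growth hormone control, stayed at or below 3.98 CPM (edgeR, adjusted p = 0.0940 in WT).

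Ptpn11, which encodes the phosphatase SHP2, rose with diet in WT and in the average by 0.81 and 0.58 on the log2 scale (edgeR, adjusted p = 0.0300 and 0.0224). Sh2b1, an adaptor of JAK2, fell in the average by 0.54 (edgeR, adjusted p = 0.0103), with 41.6 to 49.1 CPM in the EtOH libraries and 62.1 to 66.2 CPM in the Control libraries. The call of Ptpn11 in WT was lost without each WT library in turn, at an adjusted p of up to 0.174, and that of Sh2b1 without WT-EtOH replicate 1 (edgeR, 0.0562). The averaged call of Ptpn11 was lost without 5 of the 8 libraries, each of the 4 WT libraries among them, at an adjusted p of up to 0.0947.

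Of 21 further genes of the IGF and insulin system, 18 were in the table, 15 were tested, and Igf2, Pappa2 and Stc1 were not analysed here. In WT 3 rose and 1 fell with diet, in Elf4-/- none passed, and in the average 3 rose and 2 fell (edgeR), where 21.6%, 2.89% and 28.0% of all genes passed, so the shares in WT and in the average are near those of all genes. At an unadjusted p under 0.05 edgeR held 6, 2 and 7 of the 15. The medians were 0.35, 0.11 and 0.27 on the log2 scale. Igfbp3, which in liver comes mainly from non-parenchymal cells, rose in WT from 10.4 and 3.86 CPM to 20.4 and 23.3 CPM (edgeR, log2 fold change 1.61, adjusted p = 0.0179). Igfbp7 rose from 25.7 and 12.3 CPM to 57.4 and 70.9 CPM (edgeR, 1.75, adjusted p = 0.0124). Both moved with the endothelial and stellate marker sums given above, and the part of those cells was not tested.

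Fgf21, a hepatic hormone of fasting and stress, rose in WT from 4.10 and 4.05 CPM to 12.5 and 21.4 CPM (edgeR, log2 fold change 2.06, adjusted p = 0.0141). Irs1, an adaptor of the insulin and IGF-I receptors, fell in WT from 16.2 and 24.7 CPM to 10.2 and 11.6 CPM (edgeR, −0.90, adjusted p = 0.0287). In the average Igfbp3, Igfbp7 and Fgf21 rose and Irs1 and Foxo3 fell. The WT calls of these 4 genes were lost without 2 to 5 of the 8 libraries each, WT-EtOH replicate 2 among them in every case, at an adjusted p of up to 0.108 for Igfbp3, 0.0865 for Igfbp7, 0.127 for Fgf21 and 0.165 for Irs1 in edgeR. In the average, Igfbp7 (1.31) kept its call without each library, and Fgf21 (1.47) lost it without WT-EtOH replicate 2 (edgeR, adjusted p = 0.0557). The averaged calls of Irs1 (−0.67), Foxo3 (−0.51) and Igfbp3 (0.86) were lost without 4, 4 and 6 of the 8 libraries, at an adjusted p of up to 0.0680, 0.105 and 0.125 in edgeR, and the call of each was lost without either Elf4-/--Control replicate.

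The receptors and the most abundant binding protein of this list did not pass in any diet contrast. Igf1r, the IGF-I receptor, had 1.84 to 5.74 CPM over all libraries, Insr, the insulin receptor, 104 to 160 CPM, and Irs2, a second insulin receptor adaptor, 4.11 to 22.6 CPM. Igfbp4, which binds IGF-I in the local circulation of tissues, had 935 to 1448 CPM. Of 10 genes that insulin is known to repress through FOXO factors, 1 rose and 0 fell with diet in Elf4-/-, and 1 rose and 2 fell in the average (edgeR). Of all genes, 2.89% and 28.0% passed in these contrasts. The gene that rose in both was Pdk4, which had 0.368 to 3.18 CPM in the Control libraries and passed the filter on low counts through the EtOH groups. In WT, where 21.6% of all genes passed, Pdk4 rose and Pck1, Ppargc1a and Klf15 fell (edgeR, adjusted p = 0.00906, 0.0335, 0.0304 and 0.00863), so the list did not move in 1 direction. These calls were lost without WT-Control replicate 1 or 2 for Pdk4, Pck1 and Ppargc1a and without WT-EtOH replicate 2 for Pck1, Ppargc1a and Klf15, at an adjusted p of up to 0.207 in edgeR.

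The male-biased and female-biased lists hold liver genes that are known to follow the pattern of growth hormone. Both lists were chosen with earlier results of these data known, so counts over them are no independent support for a shift. Of 17 male-biased genes, all tested, 12 fell with diet in WT, 9 fell in Elf4-/- and 15 fell in the average, and none rose, where 10.8%, 1.18% and 13.8% of all genes fell (edgeR). The median log2 fold change was −2.41, −2.29 and −2.17, against 0.01 for all genes in each. Their summed level was 21948 to 24368 CPM in WT-Control, 5410 to 6323 CPM in WT-EtOH, 18214 to 24274 CPM in Elf4-/--Control and 1994 to 6760 CPM in Elf4-/--EtOH, with no overlap between the diets. The sum rests mainly on Mup3, Mup20 and Serpina1e, with means of 9233, 4214 and 3883 CPM over the Control libraries. Its separation of the diets is therefore no result about all 17 genes.

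Hsd3b5, a male-specific steroid reductase, had 96.6 and 197 CPM in WT-Control and 1.26 and 1.12 CPM in WT-EtOH. Elf4-/- libraries had 99.3 and 112 CPM under Control and 0 and 1.59 CPM under EtOH. Its fall of 6.93 on the log2 scale in the average (edgeR, adjusted p = 6.11e-05) held without each library. Elovl3, a fatty acid elongase, fell in WT from 71.2 and 73.6 CPM to 15.9 and 11.3 CPM (edgeR, −2.41, adjusted p = 0.000995), and stood at 19.3 and 28.6 CPM in Elf4-/--Control. Slco1a1, an organic anion transporter, fell by 2.20 on the log2 scale in the average (edgeR, adjusted p = 0.00105). Gstp1 did not pass in any diet contrast, and its value was 0.69 in WT and −0.66 in Elf4-/-. The Mup, Cyp4a12, Selenbp, Serpina1 and Cyp2d genes of this list belong to families of near-identical copies, so their single values are uncertain.

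Female-biased genes went the other way. Of 19 genes, 14 were in the table and 11 passed the filter on low counts, several of them through the EtOH groups where they were higher, so a count over those 11 is no support for a rise of the list. Of the 11, 6 rose in WT, 5 in Elf4-/- and 10 in the average, and none fell, where 10.8%, 1.71% and 14.1% of all genes rose (edgeR). The summed level of the 14 was 49.1 to 75.3 CPM in WT-Control, 596 to 1272 CPM in WT-EtOH, 79.8 to 81.4 CPM in Elf4-/--Control and 560 to 1365 CPM in Elf4-/--EtOH. Acot3, a peroxisomal thioesterase, had 0.373 and 0.552 CPM in WT-Control and 132 and 261 CPM in WT-EtOH, and 4.20 and 3.88 CPM in Elf4-/--Control and 97.6 and 98.7 CPM in Elf4-/--EtOH. Abcd2, a peroxisomal fatty acid transporter detected in every library, rose by 1.17 in the average (edgeR, adjusted p = 0.00587).

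The counts of both lists within a genotype depended on single libraries. The male-biased count in WT was 6 without WT-EtOH replicate 2, and in Elf4-/- it was 3 and 2 without Elf4-/--Control replicates 1 and 2. The female-biased count in WT was 3 without WT-Control replicate 2, and in Elf4-/- it was 2 without either Elf4-/--Control replicate and 10 without Elf4-/--EtOH replicate 2. In the average the male-biased count stayed between 12 and 16 and the female-biased count between 7 and 11. In neither list did a gene pass in a genotype contrast or in the interaction (edgeR, 17 and 11 tested). An unadjusted p under 0.05 was found for 4 male-biased and 4 female-biased genes between genotypes under EtOH, for 1 and 1 under Control, and for 3 and 1 in the interaction, where 10.5%, 7.31% and 10.1% of all genes had one.

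**Figure D4:**
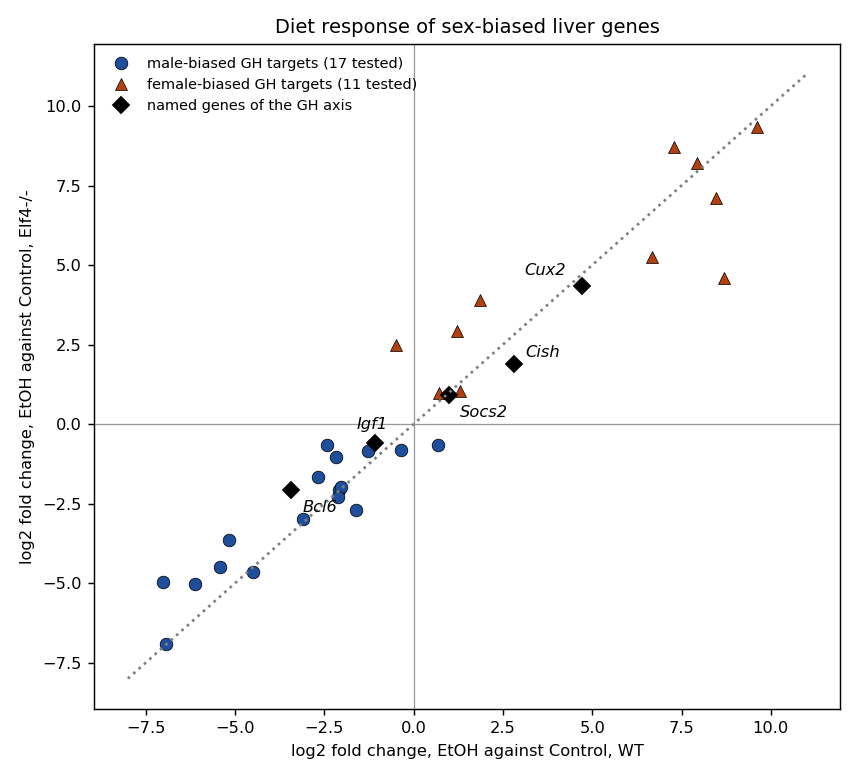
Log2 fold change of EtOH against Control in WT (horizontal axis) and in Elf4-/- (vertical axis) for the 17 male-biased and 11 female-biased genes tested and for Bcl6, Cux2, Cish, Socs2 and Igf1. The dotted line marks equal change, and Bcl6 lies with the male-biased genes at −3.42 and −2.08. Cux2 lies toward the female-biased genes at 4.71 and 4.35, and like several of them passed the filter on low counts through the EtOH groups. Values of genes near 0 in Control depend on the fitted prior count.

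The genes whose pattern over the 8 libraries was most like that of each member were ranked by the mean absolute difference of log2 CPM after centring each gene, among 9397 other genes that averaged 50 counts or more. Bcl6 was most like F11, the gene of coagulation factor XI, at 0.19, where a flat gene would differ from Bcl6 by 1.41. F11 had 329 and 201 CPM in WT-Control, 19.7 and 16.8 CPM in WT-EtOH, 168 and 178 CPM in Elf4-/--Control and 64.1 and 32.0 CPM in Elf4-/--EtOH, so it fell with diet and was nearer to Control in the same Elf4-/--EtOH library as Bcl6. Gm15318 and Spata2l followed at 0.43 each. Igf1 was most like Tsen54 (0.17 against 0.59 for a flat gene), Socs2 like Gm2788 and Cd74 (0.23 and 0.25 against 0.75), Igfbp2 like Nat8f1 (0.29 against 0.81), Cish like Alas1 (0.53 against 1.14) and Igfbp1 like Adam11 (0.68 against 1.43). For Ghr, Igfals, Stat5a and Stat5b, which varied little, the nearest genes were Pygo2, Rpl37rt, Pan2 and C4b, at 0.05 to 0.10 against 0.20 to 0.31 for a flat gene. With 8 libraries that share groups, these ranks describe the libraries and nothing further.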

How the data were processed

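RNA of 8 liver libraries was sequenced, and per the study's methods the authors aligned reads to mm10 with HISAT2, sorted them with SAMtools, counted them per gene with HTSeq and tested them with DESeq2. Versions, annotation and strand setting were not given in the sources used here. The deposited table holds unnormalized whole-number counts per gene symbol, 1 column per library, and replicates were not pooled. From these counts, genes were filtered with filterByExpr and 1 model with 4 groups and no covariate was fitted in edgeR 4.0.16 (R 4.3.3) with TMM scaling and the quasi-likelihood test. Of 6 contrasts, p-values were adjusted by Benjamini-Hochberg over 13993 genes with a threshold of 0.05. SE is the absolute log2 fold change divided by the root of the F statistic, with 2 as the prior count for log2 CPM. The code was tested on simulated data.

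The members and gene lists were chosen with earlier results of these data known. All 10 members were named in every contrast. Of the receptor pathway, IGF and insulin, FOXO target, male-biased and female-biased lists, a rule admitted the called genes with the largest change, at most 3 per list and contrast among those averaging 50 counts or more, and 12 pathway genes whatever their values. Elovl3, Slco1a1, Gstp1, Abcd2, Foxo3, Ppargc1a, G6pc, Sesn1, Sesn3 and Gdf15 fall outside that rule and were chosen after their values were seen. For each member, the 3 genes with the most similar pattern were ranked and 1 or more were named.

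Gene coordinates and exon lengths came from GENCODE M21 (GRCm38, the assembly of mm10) and promoter letters from RefSeq. Same-numbered replicates did not deviate together, with correlations of their deviations from −0.13 to 0.11, so the number was not used for pairing. The alternatives were DESeq2 1.42.0, its size factors (RLE), library totals alone, leaving out the mitochondrial genome, no filter, a stricter minimum mean of 50 counts, a fit of only the 4 libraries compared, the replicate number as a block, and leaving out each library in turn.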

Additional observations from a re-analysis of the deposited data

Results flagged for a closer look

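Stat5a had a genotype difference of opposite direction under the 2 diets. Both Elf4-/- libraries were below both WT libraries under Control (14.0 and 15.7 against 18.4 and 21.8 CPM) and above both under EtOH (14.7 and 15.1 against 11.1 and 14.1 CPM). The difference between the diets was 0.68 on the log2 scale, and as an interaction in edgeR's quasi-likelihood test it did not pass over all genes (unadjusted p = 0.0585, adjusted p = 0.511), so the genotype effects are not shown to differ.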

How the results depend on the processing

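The count of members past the threshold was 4 in WT and 0 in Elf4-/- when only the 4 libraries compared were fitted, against 2 and 1, and DESeq2 called 1 under EtOH between genotypes, against 0. For the averaged genotype effect DESeq2 and no filter each called 1, against 0. Leaving out 1 library gave 1 to 6 for diet in WT, 0 to 4 for diet in Elf4-/-, 1 to 7 for the average, 0 to 2 for genotype under EtOH and 0 to 3 for the averaged genotype effect, the highest of the diet counts without Elf4-/--EtOH replicate 2, and 0 throughout for genotype under Control and the interaction. The lone library of a group was then assumed to vary like the others.

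With library totals alone, Ghr was 0.23 for diet in WT, Stat5a −0.033 for diet in Elf4-/- and Bcl6 0.036 for genotype under Control, each the reverse of its sign, and with no filter Stat5a was −0.0022 for diet in Elf4-/-. That scaling moved the median of all genes by 0.43 for diet in WT, 0.20 in the average, −0.23 and 0.23 for genotype under EtOH and Control, and −0.46 for the interaction, and its calls for diet in WT were 3422 higher and 634 lower, against 1518 and 1507. Signs that turned without 1 library gave ranges of −0.047 to 0.27 (Igfals, WT), −0.14 to 2.18 (Igfbp1, WT), −1.37 to 0.045 (Igfbp2, WT), −0.39 to 0.74 (Igfals, Elf4-/-), −1.45 to 3.77 (Igfbp1, Elf4-/-), −2.86 to 0.11 (Igfbp2, Elf4-/-), −0.46 to 2.73 (Cish, Elf4-/-), −0.071 to 0.086 (Stat5a, Elf4-/-), −0.56 to 0.052 (Stat5b, Elf4-/-), −0.14 to 0.43 (Igfals, average) and −0.43 to 2.50 (Igfbp1, average).

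With the replicate number as a block, 3 members passed for diet in WT, 1 in Elf4-/- and 3 in the average, Cish being the addition in WT (edgeR, adjusted p = 0.0394), and no other call of a member changed. Calls over all genes for diet in Elf4-/- were 404, with 811 in DESeq2, 240 under the block, 40 from the 4 libraries and 9 to 1683 without 1 library. For genotype under EtOH they were 20, with 182 in DESeq2, 50 with no filter, 10 under the block and 0 from the 4 libraries, and 13 with the stricter filter. The cause of these changes was not tested. At this depth Cish in WT-Control rests on 4 and 17 counts, and 2 libraries a group limit every comparison.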

Other observations

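The genotype effect averaged over the 2 diets was fitted after the values were seen. None of the 10 genes passed in edgeR, where 0.136% of all genes did, and at an unadjusted p under 0.05 it held 1 of the 10 and 7.94% of all genes. Socs2, the feedback inhibitor of the growth hormone receptor, was that gene, lower in Elf4-/- by 1.24 on the log2 scale, with a log2 difference of −1.24 ± 0.23 (SE) and a 2.36-fold lower level (edgeR, unadjusted p = 0.000324, adjusted p = 0.120). It passed in DESeq2 (adjusted p = 0.000515), with no filter on low counts (edgeR, adjusted p = 0.0375), and when Elf4-/--EtOH replicate 1 was left out (edgeR, −1.01, adjusted p = 0.0219) or replicate 2 (edgeR, −1.57, adjusted p = 0.00138). Over the alternatives with every library the adjusted p ran from 0.000515 to 0.139, and without 1 library from 0.00138 to 0.459.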
